A study of Drosophila melanogaster with 8 samples.

Results

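The genes described here are 9 components of the BMP branch of TGF-beta signalling in Drosophila melanogaster: the ligand genes gbb and dpp, the receptor genes wit, tkv and sax, and the nuclear effector genes Mad, Dad, shn and brk. They were chosen by name, with earlier results of these data known. All 9 were found among the 14175 genes measured and passed the count filter that left 9176 genes for testing. RNA came from ventral nerve cords of female wandering larvae in a w1118 background, with brain lobes removed. The wit mutants were witA12, st1 over witB11, st1, and the controls were witA12, st1 over a chromosome without these alleles. All larvae therefore had at least 1 mutant wit copy, so the controls were heterozygotes. There were 4 libraries of each genotype, each from 25 pooled nerve cords. The labels do not give the lesions of the 2 alleles. The comparison addresses which transcripts of the nerve cord differ between these genotypes. The genotypes differ in the chromosome that carries wit, so effects of wit and of linked sequence cannot be told apart.

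In BMP signalling a ligand dimer brings together type I and type II receptor kinases, and the type I receptor then phosphorylates the transcription factor Mad. Phosphorylated Mad enters the nucleus with its partner Medea and activates genes such as Dad, or, with the zinc finger protein Schnurri (shn), represses genes such as brk. In the fly larva, Gbb released by muscle acts through the Wit receptor on motor neurons, and by the same kind of target-derived signal on some peptidergic neurons.

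Libraries held between 20923717 and 32740480 estimated counts, and levels are given as CPM, counts divided by a scaled library total. The first principal component of log2 CPM held 48.2% of the variance and separated the genotypes, and mutant replicate 1 lay apart from the other mutants on the second. The tissue label was matched by strong neuronal signal, with elav at 1070 CPM in mutants and 1160 CPM in controls. Of 6 neuron markers 4 were lower in mutants and 0 higher, and their summed level was 4620 to 5400 CPM in mutants and 5840 to 6050 CPM in controls. The markers elav and nrv3 did not pass, and VGlut fell most, with a log2 fold change of -0.67. Of 8 glial markers 4 were lower and 0 higher, with sums of 1090 to 1620 CPM in mutants and 1800 to 1860 CPM in controls. Over all genes tested, 8.66% were called lower. The glial markers repo, moody, nrv2 and alrm did not pass, with log2 fold changes of -0.07, -0.06, -0.11 and -0.10. Gs2 weighed heavily in the glial sum, at 183 to 418 CPM in mutants and 557 to 574 CPM in controls. Of 5 tested muscle markers 1, bt, was lower and 0 were higher, with sums of 46.7 to 56.8 CPM in mutants and 43.8 to 50.3 CPM in controls. No marker was at 0 in all libraries. In these bulk samples, fewer cells of a type, less RNA per cell and changes in single marker genes cannot be told apart.

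Of the 9 genes 3 were lower in wit mutants, namely Dad, dpp and shn, and 0 were higher, by edgeR's quasi-likelihood test at an adjusted p under 0.05. Over all 9176 genes tested, 8.66% were called lower and 6.12% higher. At an unadjusted p under 0.05, 5 of the 9 genes passed, against 30.2% of all genes. Mutant and control values did not overlap, with mutants lower, for 4 of the 9 genes (Dad, dpp, shn and Mad) and for 11.7% of all genes tested; mutants were wholly above controls for 0 of the 9 genes and for 8.82% of all genes. The log2 fold change of mutant over control had a median of -0.07 over the 9 genes and of 0.005 over all genes. Because the 9 genes were chosen with earlier results of these data known, these comparisons do not test the list. The count of the 9 genes called lower was 3 without mutant replicate 1 or control replicate 1, and 2 without any other single library. Over all genes, the number called lower moved from 795 to 1124 without mutant replicate 1 and to 524 without control replicate 2. The number called higher moved from 562 to 1060 without mutant replicate 1, to 361 and 350 without mutant replicates 2 and 3, and to 304, 311 and 359 without control replicates 2, 3 and 4.

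**Figure D1:**
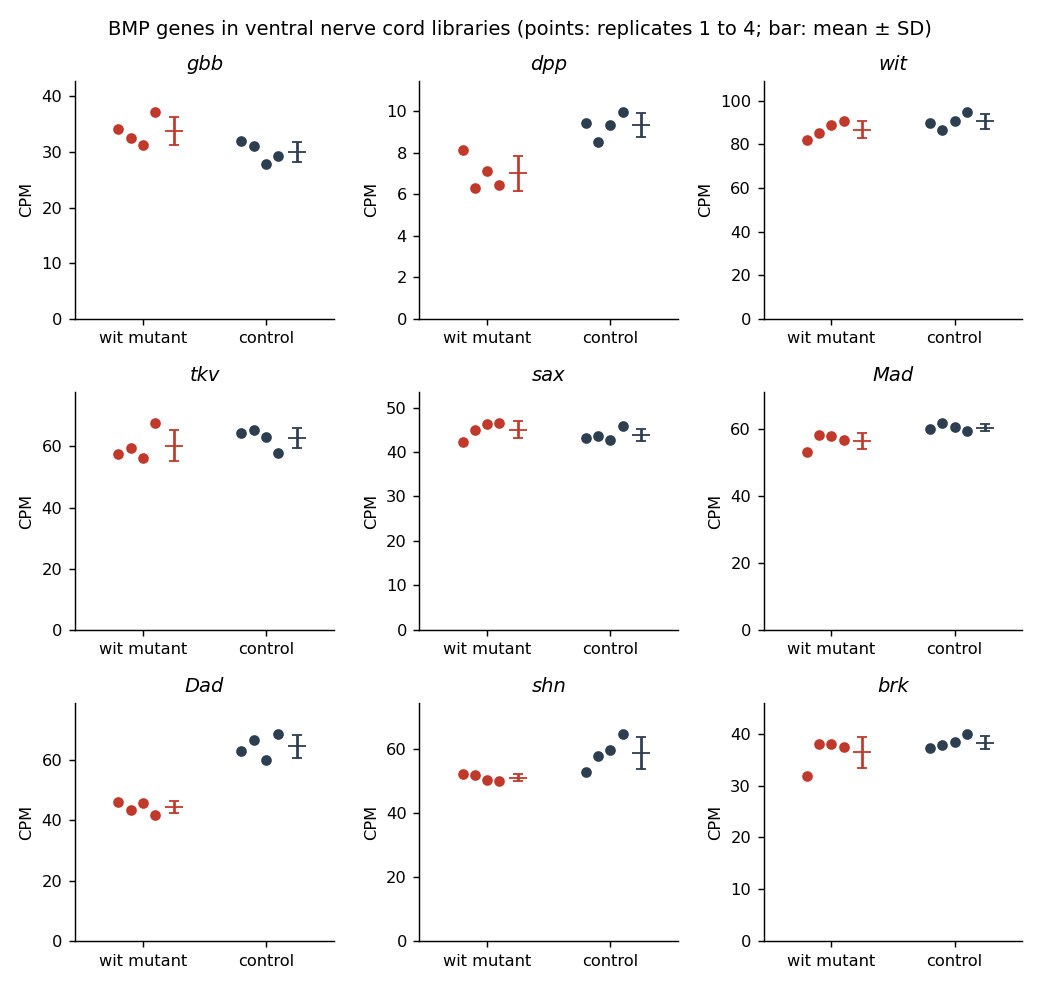
Level of each BMP gene in CPM (vertical axis from 0, a separate scale for each gene) in the 4 wit mutant and 4 control libraries, with the mean and SD beside the points. Dad lies between 41.9 and 46.2 CPM in mutants and between 60.0 and 68.6 CPM in controls, while the wit values of the genotypes overlap.

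The ligand gene dpp was lower in wit mutants, and the ligand gene gbb did not pass the test. The gene dpp encodes the BMP2/4-type ligand that patterns the embryo and imaginal discs (FBgn0000490, chromosome 2L, 2428372 to 2459823, BDGP6). It stood at 8.15, 6.31, 7.13 and 6.42 CPM in mutant replicates 1 to 4, against 9.45, 8.53, 9.35 and 9.96 CPM in control replicates 1 to 4. Every mutant value was below every control value, with mutant replicate 1 nearest to the controls. The mean was 7.0 ± 0.844 CPM in mutants and 9.33 ± 0.591 CPM in controls (SD, n = 4 each), with a log2 fold change of -0.42 (SE 0.09) and an edgeR adjusted p of 0.0124. The level in mutants was 74.9% of that in controls, with a 95% interval of 64.9% to 86.4%. This is the member with the fewest reads, with 160 to 231 estimated counts in mutants and 227 to 318 in controls. Its spread between libraries, a coefficient of variation of 12.1% in mutants and 6.34% in controls, compares with a counting error of 7.29% in mutants and 6.11% in controls.

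Imaginal discs are a known site of dpp expression, and disc markers were read beside it. Of 6 tested disc markers vn, ptc and sd were lower in mutants and vg was higher, and the list summed to 262 to 273 CPM in mutants and 284 to 305 CPM in controls. The EGF receptor ligand gene vn was at 8.55 CPM in mutants and 19.5 CPM in controls (log2 fold change -1.18, edgeR adjusted p = 6.74e-07), and ptc was at 35.1 CPM in mutants and 41.4 CPM in controls (-0.24, adjusted p = 0.00873). The log2 fold changes of sd and vg were -0.11 and 0.18, and nub and Dll, at 0.05 and -0.23, did not pass. The gene sd weighed heavily in the disc sum, averaging 169 CPM in mutants and 182 CPM in controls. The part of these markers in the dpp difference was not tested.

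The gene gbb encodes the BMP5/6/7-type ligand Glass bottom boat, the muscle-derived signal of the larval neuromuscular junction (FBgn0024234, chromosome 2R, 23851562 to 23853247). It stood at 34.2, 32.5, 31.3 and 37.2 CPM in mutants, against 32.0, 31.1, 27.9 and 29.2 CPM in controls. Mutant values reached higher, but mutant replicate 3 lay below control replicate 1. The log2 fold change was 0.17 (95% interval 0.04 to 0.30, edgeR adjusted p = 0.0859), where the interval is not adjusted for the number of genes.

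The receptor transcripts did not pass the test in either direction. The gene wit encodes the type II receptor Wishful thinking (FBgn0024179, chromosome 3L, 4064152 to 4071717). It stood at 82.1, 85.2, 89.1 and 91.0 CPM in mutants, against 89.8, 86.6, 91.0 and 94.9 CPM in controls. The ranges overlapped, and the level in mutants was 95.9% of that in controls (95% interval 90.0% to 102%, edgeR adjusted p = 0.371). The abundance of the wit transcript therefore does not check the genotype labels. The steroid enzyme gene dib, on the opposite strand, shares 400 exon bases with wit, and averaged 0.0379 CPM in mutants and 0.0465 CPM in controls.

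The type I receptor genes tkv (thickveins) and sax (saxophone) encode the kinases that phosphorylate Mad. The level of tkv (FBgn0003716, chromosome 2L, 5219000 to 5271384) was 56.2 to 67.6 CPM in mutants and 57.8 to 65.5 CPM in controls. That of sax (FBgn0003317, chromosome 2R, 7806484 to 7810067) was 42.3 to 46.5 CPM in mutants and 42.7 to 45.9 CPM in controls. For both genes the ranges overlapped. CR14033 and TpnC25D, on the opposite strand, share 158 and 54 exon bases with tkv. Levels in mutants were 96.1% of the control level for tkv (95% interval 87.7% to 105%, edgeR adjusted p = 0.571) and 103% for sax (96.4% to 110%, adjusted p = 0.571). The other type II receptor gene, put (punt), averaged 65.7 ± 1.59 CPM in mutants and 66.5 ± 1.63 CPM in controls (SD, n = 4 each), and its 95% interval for the log2 fold change was -0.09 to 0.06.

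Among the nuclear effectors the inhibitory Smad gene was the one that differed most. Dad (Daughters against dpp) encodes a Smad that binds activated type I receptors and limits Mad phosphorylation, and it is itself induced by BMP signalling in many fly tissues (FBgn0020493, chromosome 3R, 17054007 to 17070408). It stood at 46.2, 43.6, 45.8 and 41.9 CPM in mutants, against 63.0, 66.7, 60.0 and 68.6 CPM in controls. The highest mutant lay well below the lowest control. The mean was 44.4 ± 1.98 CPM in mutants and 64.6 ± 3.83 CPM in controls (SD, n = 4 each), for a log2 fold change of -0.54 (SE 0.05, edgeR adjusted p = 2.62e-05). Mutants thus held 68.7% of the control level, with a 95% interval of 63.7% to 74.1%. By its p-value Dad ranked 73rd of the genes tested, and 239 of the 795 genes called lower had a log2 fold change at or below that of Dad. The summed neuron and glial markers were lower in mutants as well, although several of them did not pass singly. The part of these markers in the Dad difference was not tested.

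The zinc finger gene shn (FBgn0003396, chromosome 2R, 11159086 to 11217394) fell by less. It stood at 52.2, 51.8, 50.4 and 50.0 CPM in mutants, against 52.8, 57.9, 59.7 and 64.7 CPM in controls. The mutants lay close together, the controls spread more widely, and control replicate 1 lay just above the highest mutant. The coefficient of variation was 2.07% in mutants and 8.36% in controls, against a counting error of 2.69% in mutants and 2.44% in controls. Its log2 fold change of -0.20 (SE 0.05) had an edgeR adjusted p of 0.0291. The call was lost without mutant replicate 2, 3 or 4 (adjusted p 0.0673, 0.0746 and 0.0708) and without control replicate 2, 3 or 4 (0.0631, 0.0811 and 0.0727).

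The transducer gene Mad (Mothers against dpp), which encodes the Smad phosphorylated by Tkv and Sax, showed a smaller difference (FBgn0011648, chromosome 2L, 3146056 to 3159643). It stood at 53.0, 58.2, 57.9 and 56.5 CPM in mutants, against 59.8, 61.6, 60.6 and 59.4 CPM in controls. All 4 mutants were below all 4 controls, yet the log2 fold change of -0.10 (95% interval -0.18 to -0.01) did not pass adjustment over all genes (edgeR adjusted p = 0.116). It passed with 1 surrogate variable as a covariate (adjusted p = 0.0435) and in no other alternative.

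The repressor gene brk (brinker), which BMP signalling silences in embryos and discs, did not pass the test (FBgn0024250, chromosome X, 7307939 to 7311132). It stood at 31.8, 38.1, 38.0 and 37.5 CPM in mutants, against 37.2, 37.8, 38.4 and 39.9 CPM in controls. Mutant replicate 1 was low and the other mutants lay within the control range. The log2 fold change was -0.07 (95% interval -0.20 to 0.05, edgeR adjusted p = 0.427), and -0.02 without mutant replicate 1 (adjusted p = 0.799). The upper bound of 0.05 corresponds to 104% of the control level.

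Within-library ratios, which do not depend on library scaling, were compared for 4 pairs of these genes by an exact two-sided permutation test, whose smallest possible p with 4 libraries against 4 is 0.0286. The log2 ratio of Dad to Mad estimated counts averaged -0.35 ± 0.11 in mutants and 0.10 ± 0.09 in controls (SD, n = 4 each; exact p = 0.0286, 0.0381 adjusted over the 4 ratios). The log2 ratio of Dad to brk averaged 0.29 ± 0.17 in mutants and 0.75 ± 0.08 in controls, with the same exact p and adjusted p. In both cases the ranges did not overlap, and Dad was lower relative to its own transducer gene and to the repressor gene. The Dad values alone had already separated the genotypes, so these ratios are not evidence separate from the Dad difference.

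The ligand ratio also shifted. The log2 ratio of gbb to dpp was 2.07, 2.36, 2.14 and 2.53 in mutants, against 1.76, 1.87, 1.58 and 1.55 in controls. All 4 mutants were above all 4 controls, with a difference of 0.59 (exact permutation p = 0.0286, adjusted p = 0.0381). The dpp values alone had already separated the genotypes, so this ratio is not evidence separate from the dpp difference. The ratio of Dad to dpp, the 2 genes with the largest falls, overlapped between genotypes, at 2.50 to 2.79 in mutants and 2.68 to 2.97 in controls on the log2 scale (difference -0.12, exact permutation p = 0.286).

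**Figure D2:**
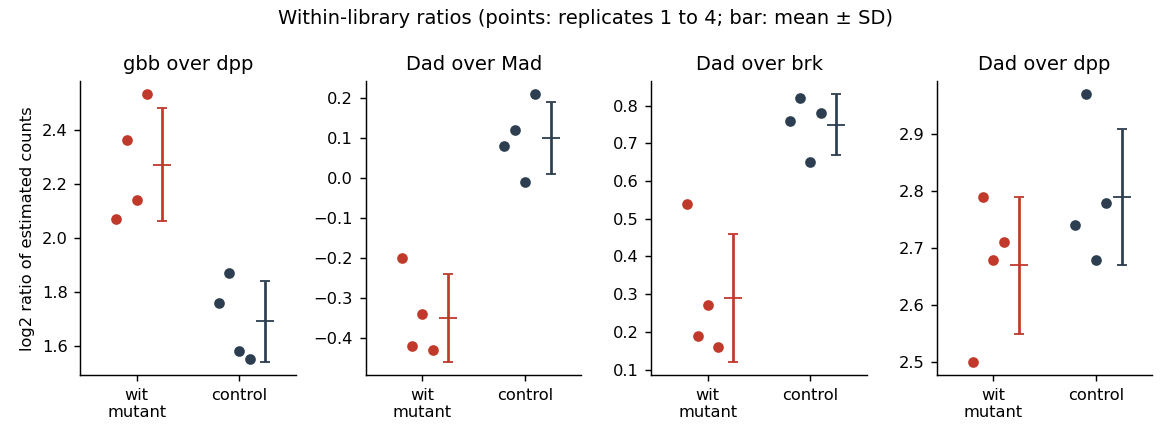
Log2 ratios of estimated counts of pairs of BMP genes within each library (vertical axes differ between panels), as points for the 4 wit mutant and 4 control libraries with mean and SD. The genotypes separate for gbb over dpp, Dad over Mad and Dad over brk, and overlap for Dad over dpp.

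Levels were compared between genes as CPM per kb of annotated exon. The ligands lay far apart: gbb averaged 20.0 ± 1.5 CPM per kb in mutants and 17.8 ± 1.09 in controls, and dpp averaged 1.34 ± 0.162 in mutants and 1.79 ± 0.113 in controls (SD, n = 4 each). On this scale gbb stood at percentile 59.0 of the genes tested and dpp at percentile 13.1, so the nerve cord held much more gbb than dpp transcript. Among receptors wit was highest, at 19.5 to 21.6 CPM per kb in mutants and 20.5 to 22.5 in controls, above put, sax and tkv in every library. The order of those 3 is uncertain. By all annotated exons put came before sax and tkv, with means of 16.4, 15.7 and 13.6 CPM per kb in mutants and 16.6, 15.3 and 14.1 in controls, whereas by the longest transcript tkv ranked directly after wit in both genotypes. On the exon scale put and sax overlapped in both genotypes, and sax and tkv overlapped in mutants but not in controls.

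Among effectors the place of Dad differed between genotypes. In mutants Dad averaged 11.4 ± 0.508 CPM per kb, overlapping brk at 11.4 ± 0.959 and below Mad at 16.5 ± 0.704. In controls Dad averaged 16.5 ± 0.981 CPM per kb, overlapping Mad at 17.7 ± 0.284 and above brk at 12.0 ± 0.370. The transcript of shn was lowest of the 4, at 4.65 ± 0.096 CPM per kb in mutants and 5.35 ± 0.447 in controls.

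**Figure D3:**
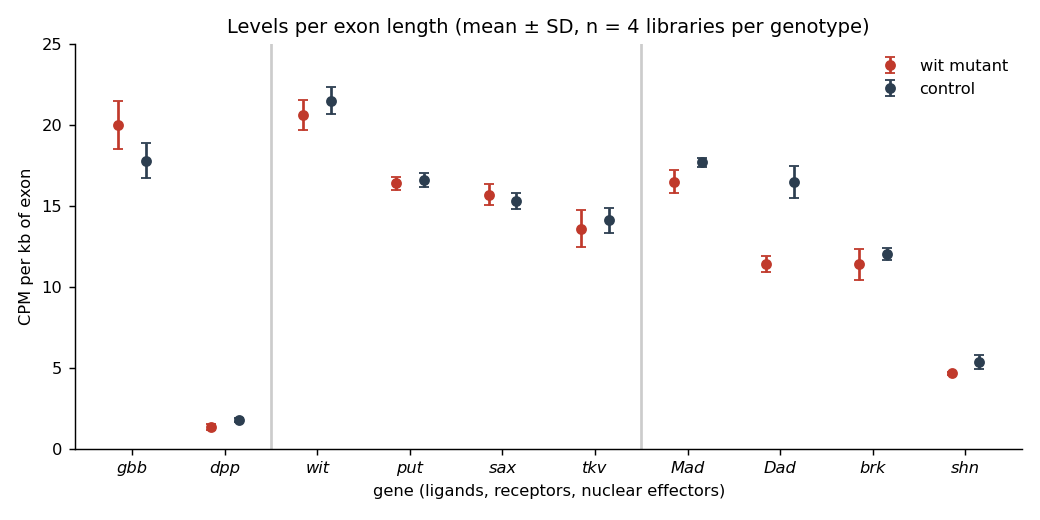
Mean level in CPM per kb of annotated exon (vertical axis from 0) of ligand, receptor and effector genes, left to right, with SD over 4 libraries per genotype. The dpp values lie under 2 CPM per kb, and the Dad value of controls lies beside Mad while that of mutants lies beside brk.

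Among the other listed genes, which are pathway genes and reported target genes, 48 were tested. Of these 14 were lower and 4 were higher in wit mutants, which is 29.2% and 8.33% against 8.66% and 6.12% over all genes. The 48 include 6 reported neuronal targets, of which 3 were lower and 0 higher. They also include 4 reported disc targets, of which 1 was lower and 1 higher. The median log2 fold change of the 48 genes was -0.04. The 4 calls of higher genes became 1 without mutant replicate 3, 0 without control replicate 2 or 3, and 2 without control replicate 4. The lists were written with earlier results of these data known. LIMK1, trol and Med (Medea), the partner of Mad, were listed under identifiers that the files do not use. These genes were not analysed here. The listed genes tsg and srw did not pass the count filter.

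Of 8 tested ligand, receptor and Smad genes outside the 9, the 2 that were lower were activin-branch ligands. Actbeta encodes Activin-beta, a ligand made by motor neurons among others, and averaged 150 ± 5.5 CPM in mutants and 214 ± 0.738 CPM in controls (log2 fold change -0.51, edgeR adjusted p = 2.22e-06). The ligand gene daw (dawdle) averaged 20.8 ± 3.34 CPM in mutants and 30.7 ± 1.61 CPM in controls (-0.56, adjusted p = 0.00575). The activin type I receptor gene babo and its Smad gene Smox had log2 fold changes of -0.01 and -0.02, with 95% intervals of -0.08 to 0.05 and -0.11 to 0.06. The ligand genes myo and mav, at -0.02 and 0.17, and the plum gene, at -0.07, did not pass either, and the ligand gene scw was too low to test.

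Of 11 tested genes for extracellular BMP-binding proteins and proteases, 4 were lower and 1 was higher. The BMP-binding protein gene cv-2 (crossveinless 2) averaged 45.5 ± 2.68 CPM in mutants and 71.6 ± 2.33 CPM in controls (log2 fold change -0.65, edgeR adjusted p = 3.56e-06). The furin gene Fur1, whose product cleaves proproteins, averaged 111 ± 13.0 CPM in mutants and 160 ± 4.71 CPM in controls (-0.53, adjusted p = 0.00103). The secreted modulator gene magu (-0.26) and the glypican gene dally (-0.16) were also lower, where dally lost its call without control replicate 2 (adjusted p = 0.0572). The tolloid protease gene tld was higher at 9.65 ± 0.837 CPM in mutants and 7.90 ± 0.698 CPM in controls (0.29, adjusted p = 0.0490). That call was lost without mutant replicate 3 or 4 or control replicate 2, 3 or 4, where adjusted p ran to 0.142.

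Of 20 tested intracellular regulators 4 were lower and 2 higher, all by a log2 fold change of 0.26 or less in size. The kinase genes nmo (-0.19) and sgg (-0.11) encode kinases that phosphorylate Mad in the fly. The endocytic adaptor genes nwk (-0.18) and Dap160 (-0.11) encode partners at the synapse, while the sorting nexin gene Snx16 (0.26) and cmpy (0.15), a restraint on BMP signalling in motor neurons, were higher. Each of these 6 calls was lost without control replicate 3. Calls were also lost without control replicate 2 for all but nmo, without control replicate 4 for nmo, sgg, nwk and Dap160, and without control replicate 1 for nmo. Leaving out mutant replicate 2 ended the calls of sgg, nwk and Dap160, mutant replicate 3 those of nmo, sgg, Dap160 and cmpy, and mutant replicate 4 those of sgg, nwk and Dap160. Adjusted p in these cases ran to 0.0679 for nmo, 0.115 for sgg, 0.0987 for nwk, 0.129 for Dap160, 0.0631 for Snx16 and 0.0631 for cmpy. The ubiquitin ligase gene Smurf, the endosomal adaptor gene Sara and the phosphatase gene Dd had -0.05, 0.00 and -0.08 and did not pass.

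**Figure D4:**
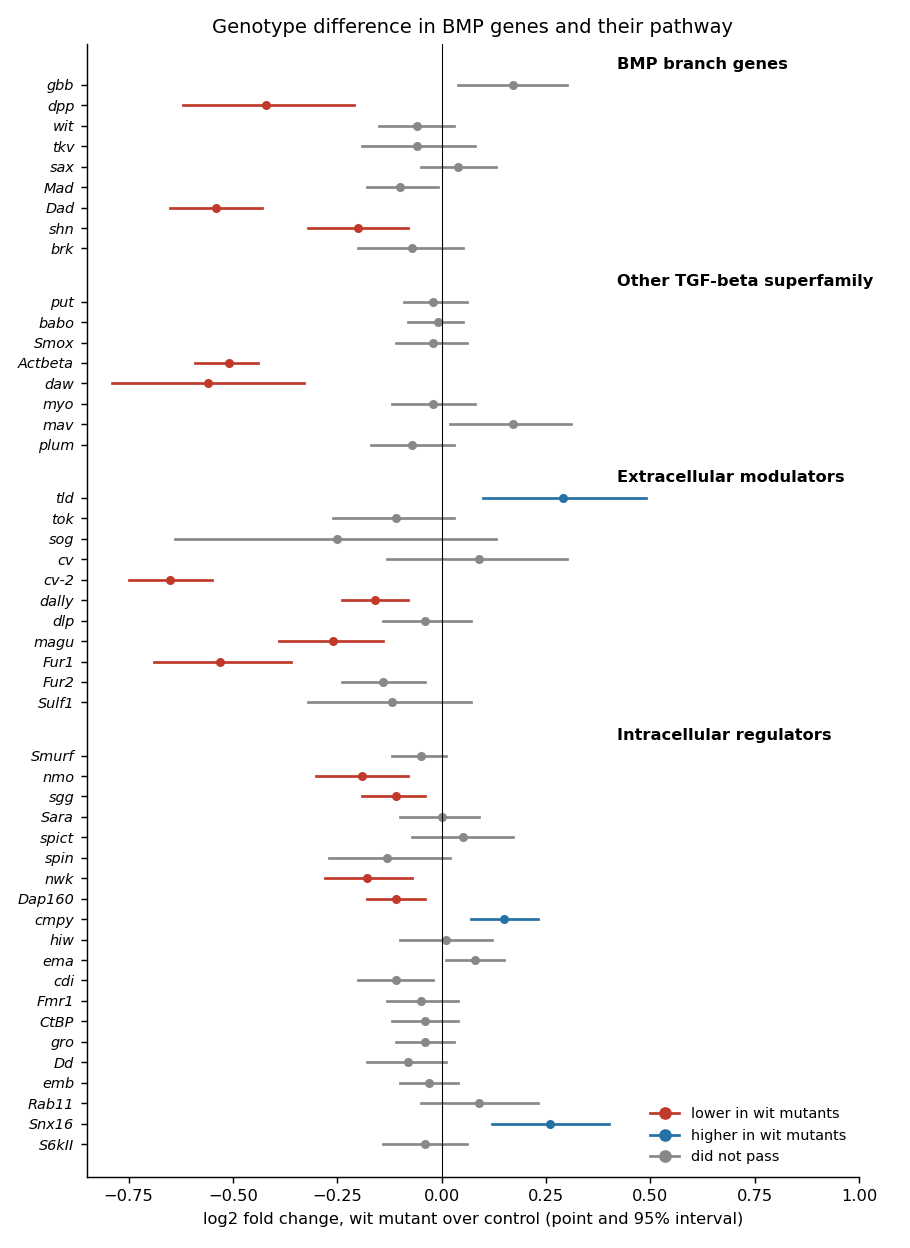
Log2 fold change of wit mutant over control with its 95% interval (horizontal axis) for the 9 BMP branch genes and the other pathway genes tested, coloured by call. The lists of reported targets are not drawn. Dad, Actbeta, daw, cv-2 and Fur1 all lie near or beyond -0.5, and the receptor genes lie near 0.

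Reported targets of the pathway were set beside Dad. The Ly6 genes twit and witty and the neuropeptide gene FMRFa, reported as BMP targets in neurons, were lower in mutants, with log2 fold changes of -3.35, -2.20 and -2.40 (edgeR adjusted p = 1.05e-05, 9.54e-09 and 6.81e-09), against -0.54 for Dad. The listed targets trio, Khc-73 and Fmr1 had -0.04, -0.01 and -0.05 and did not pass. Of 4 Dpp targets of imaginal discs bi (-0.28) was lower, salm (0.01) and salr (0.09) did not pass, and vg (0.18, edgeR adjusted p = 0.0464) was higher. The call of vg was lost without any 1 library other than mutant replicate 1 or 4, with adjusted p up to 0.138, and bi and vg are also among the optic lobe and disc markers. Brain lobes had been removed at dissection. The optic lobe and brain lobe list summed to 913 to 1010 CPM in mutants and 1020 to 1070 CPM in controls, of which hth alone averaged 778 CPM in mutants and 851 CPM in controls. Its markers ey and bi averaged 26.5 and 41.8 CPM in mutants and 24.7 and 50.7 CPM in controls. The marker dac averaged 112 CPM in mutants, with a log2 fold change of -0.04, and did not pass. Rx, tll and so were the lowest of the list. They averaged 0.907, 0.160 and 1.07 CPM in mutants and 0.830, 0.181 and 2.27 CPM in controls. How much lobe tissue remained was not tested.

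The members did not share a chromosome arm. Because the genotypes differ in a chromosome 3, the background was also read by arm: 7.89% of tested genes on 3R, where Dad lies, and 9.29% of those on 3L, where wit lies, were called lower. On 2L, with dpp, tkv and Mad, it was 10.1%, on 2R, with gbb, sax and shn, 8.04%, and on X, with brk, 7.90%. Sequence differences linked to Dad on chromosome 3R cannot be told apart from the loss of wit function in these samples.

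The tested genes with profiles most like that of Dad were found by the root mean square difference of centred log2 CPM over the 8 libraries. They were CG14086 (0.0300, on 3L), CG43737 (0.0488, on X) and CG5151 (0.0596, on 3L). CG5151 averaged 256 ± 2.25 CPM in mutants and 379 ± 6.36 CPM in controls (SD, n = 4 each). For dpp they were CG44195 (0.0395, on 3L), CG32195 (0.0579, on 3L) and the integrin alpha subunit gene if (0.0647, on X). For CG44195, CG32195 and if, as for dpp, mutant replicate 1 was the highest of the mutants. The matches were chosen on the values of these same 8 libraries, so this likeness follows from the choice.

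**Figure D5:**
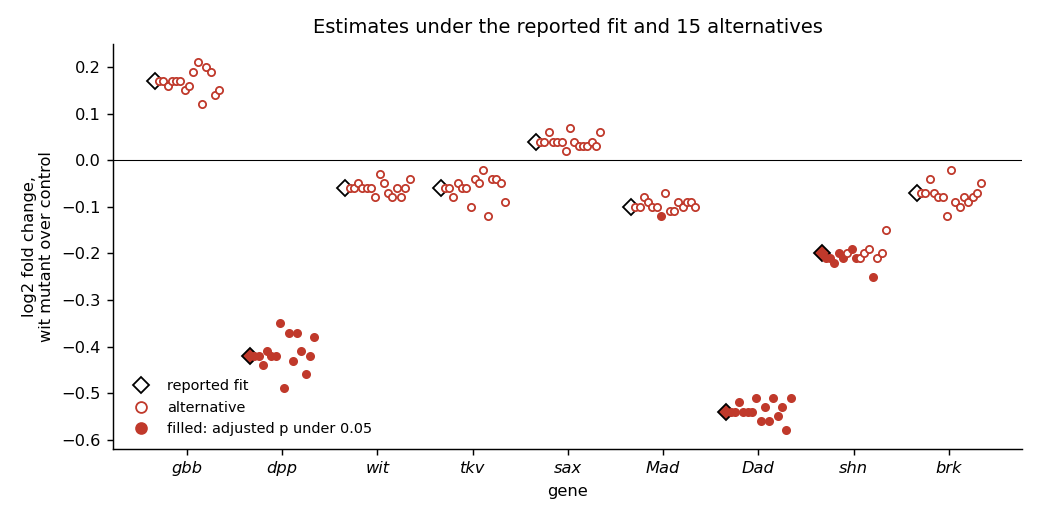
Log2 fold change of wit mutant over control (vertical axis) for each BMP gene under the reported fit (diamond) and 15 alternatives (circles), filled where adjusted p was under 0.05. Dad and dpp are filled throughout, shn is filled in part, and the estimates of wit, tkv, sax and brk lie between -0.12 and 0.07.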

How the data were processed

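Each deposited file holds the estimated counts of 1 library, summed by gene. Per the submitters' processing notes, kallisto 0.43.0, DESeq2 and build BDGP6 were used, and the summing to genes and use of strand are not given in the sources used here. Per the labels' protocols, paired 42 bp reads came from a stranded mRNA kit. Reads shared between similar transcripts are split by estimation, and no isoform was resolved. Counts were rounded to whole numbers. Of 14175 identifiers 13948 had a symbol in the reference table, and coordinates and exon lengths came from Ensembl release 115 of BDGP6.

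Genes were kept by filterByExpr (minimum count 10), scaled by TMM and tested with edgeR 4.0.16 (R 4.3.3, quasi-likelihood, robust, genotype only), with Benjamini-Hochberg adjustment over all 9176 genes. Standard errors and intervals come from the F statistic. Totals of 20923717 to 32740480 put 3 counts at 0.0926 to 0.142 CPM, and counting errors cover counting only. Library pairs within a genotype differed by more than sampling noise (chi-square per degree of freedom 3.77 to 36.2). The labels call the libraries biological replicates.

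Named genes were the 9 genes, every pathway or target gene called plus put, babo and Smox, twit and FMRFa, and 3 likeness matches each for Dad and dpp. Others, and the marker genes, were named from the fixed lists after their values were seen. Members and lists were chosen with earlier results of these data known. The procedure was tested on simulated data. Alternatives used DESeq2 1.42.0, limma 3.58.1 and sva 3.50.0, ratios scipy 1.17.1.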

Additional observations from a re-analysis of the deposited data

Results flagged for a closer look

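Among 68 sets of 4 libraries examined, 3 had a library far from the other 3 by Dixon's criterion, where chance gives about 1 in 20. The level of brk in mutant replicate 1 was 31.8 CPM, against 37.5 to 38.1 CPM in the other mutants. The level of cv-2 in control replicate 1 was 75.1 CPM, the highest of the controls. The level of witty in control replicate 2 was 27.2 CPM, also the highest of the controls.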

How the results depend on the processing

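Dad and dpp were lower in all 15 alternatives, at log2 fold changes of -0.58 to -0.51 and -0.49 to -0.35, and wit, gbb, tkv, sax and brk kept their direction and did not pass in any of them. The count of the 9 genes called lower ran from 2 to 4, and that called higher was 0 throughout. Same-numbered libraries did not deviate together (correlations -0.31 to 0.0412) and did not each correlate best with their own number, so numbers were not taken as pairs. The replicate block gave 2 lower, losing shn (adjusted p = 0.0812), and changed no other call among the 9. For the other pathway and target genes it gave 10 lower and 0 higher, and for all genes 553 lower and 301 higher. The log2 fold change of Smox ran from -0.04 to 0.00073 with 1 library left out, and was above 0 without mutant replicate 4. The other pathway and target genes called higher numbered 2 with no count filter and 0 to 6 when 1 library was left out. All genes called higher numbered 1016 with limma-voom and 304 to 1060 with 1 library left out, and those called lower 524 to 1124. Under the replicate block, a sign-flip test that cannot give p under 0.125 for 4 pairs, the ratio differences were 0.59 for gbb over dpp, -0.44 for Dad over Mad and -0.46 for Dad over brk (adjusted p = 0.167). With 1 library left out they ran from 0.50 to 0.66, from -0.49 to -0.40 and from -0.54 to -0.42, in a design whose smallest adjusted p was above the threshold. The cause of these shifts was not tested. Counting error limits dpp most among the 9 genes.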
